A study of Phyllostachys violascens with 18 samples.

Results

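GLK (GOLDEN2-LIKE) proteins are transcription factors of the GARP family of DNA-binding proteins, and they were named after the golden2 mutant of maize. In Arabidopsis and in cereals they switch on nuclear genes for chlorophyll synthesis and for the light-harvesting antenna, and leaves that lack them are pale because their chloroplasts stay small and poor in thylakoids. In Arabidopsis the genes they bind include antenna genes, glutamyl-tRNA reductase and the magnesium chelatase subunit ChlH. Their own transcript levels follow light, leaf age and signals from the plastid.

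Of the 42520 genes measured here in the leaves of a bamboo, 2 are described as GLK1, namely PH02Gene22330 and PH02Gene18738, and both passed the filter on low counts. PH02Gene22330 lies on the plus strand of scaffold 6 from base 60995137 to 61001047, and PH02Gene18738 on the minus strand of scaffold 8 from base 41985968 to 41991689. Both carry the description "probable transcription factor GLK1", taken from foxtail millet (Setaria italica). They were chosen by their counts in immature leaves, where both were lower in the variant, so every value from immature leaves is given for them as a description, without a test. Another 2 genes are described as GLK2, PH02Gene22450 and PH02Gene45076, and they serve for comparison.

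The libraries come from the variant Phyllostachys violascens ‘Flavistriatus’ and from the typical plant, Phyllostachys violascens, a bamboo grown for its shoots. Young, immature and mature leaves of greenhouse plants were sampled from each, with 3 libraries in each of the 6 groups, and neither genotype nor plant age is given further. The sample titles name leaves while the tissue field names culms, the jointed stems of bamboo. Whether the 3 libraries of a group stand for different plants is not stated in the labels, and p-values here cover the spread among libraries, part of which may be technical.

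Total counts lay between 30268130 and 58374889 per library. Antenna genes took 0.341 to 2.04% of counts in variant mature libraries and 3.02 to 3.35% in typical mature libraries, while the genes described as the small chain of Rubisco, another leaf marker, did not exceed 0.807 FPKM in any library. The lowest of these shares, 0.341%, belonged to variant mature replicate 3, which was unlike the rest of its group. Some libraries within a group were nearly alike, namely all variant immature libraries, typical mature replicates 2 and 3, and typical young replicates 2 and 3. None of these pairs agreed within sampling noise, but that does not show that their libraries come from separate plants. Each library was counted on its own, and results with nearly alike libraries summed are given below.

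In young leaves PH02Gene22330 was the main GLK1 transcript in both plant types, and PH02Gene18738 was barely present. Levels are given as FPKM, a value scaled for transcript length and library size, so that the 2 genes can be compared with each other. PH02Gene22330 had 6.0, 3.91 and 4.65 FPKM in variant young leaves, against 9.69, 9.38 and 7.0 FPKM in typical young leaves. The 3 variant libraries all lay below the 3 typical ones. The log2 fold change of variant over typical was -0.88 ± 0.26 (standard error), and it did not pass the threshold (adjusted p = 0.276, edgeR quasi-likelihood test with Benjamini-Hochberg adjustment over all genes tested). Of all genes tested, 0.17% were called in young leaves, 0.0213% as lower in the variant, and 12.8% had all variant libraries below all typical ones.

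PH02Gene18738 had 0.872, 0.286 and 0.551 FPKM in variant young leaves and 0.553, 0.272 and 0.343 FPKM in typical young leaves. The groups overlapped, and the log2 fold change was 0.52 ± 0.38 (edgeR adjusted p = 0.920). These levels rest on 33 to 106 counts in variant young libraries and on 34 to 66 counts in typical young libraries.

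In immature leaves both genes stood far lower in the variant. PH02Gene22330 had 7.05, 5.23 and 6.21 FPKM in variant immature leaves, against 39.3, 31.6 and 37.4 FPKM in typical immature leaves. PH02Gene18738 had 6.84, 7.07 and 7.09 FPKM in variant immature leaves, against 27.3, 20.4 and 39.3 FPKM in typical immature leaves. The groups did not overlap for either gene, and the variant values of PH02Gene18738 lay within a narrow band while the typical ones were widely spread. All variant immature libraries were nearly alike, so that narrow band may not show the spread among plants. The log2 fold changes of variant over typical were -3.0 for PH02Gene22330 and -2.51 for PH02Gene18738, the difference by which the genes were picked. In this comparison 44.9% of all genes tested were called, 23.1% as lower in the variant.

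In mature leaves both GLK1 genes were again lower in the variant. Mature counts were not used in picking the genes, but earlier results of these data were known when genes and tests were chosen. PH02Gene22330 had 5.64, 7.80 and 3.81 FPKM in variant mature leaves, against 8.13, 14.2 and 13.1 FPKM in typical mature leaves. PH02Gene18738 had 13.6, 15.8 and 10.3 FPKM in variant mature leaves, against 23.8, 38.5 and 39.7 FPKM in typical mature leaves. For both genes the highest variant library lay below the lowest typical library, which was also the case for 15.9% of all genes tested. PH02Gene22330 fell by 1.33 ± 0.26 on the log2 scale (edgeR adjusted p = 0.00246), and PH02Gene18738 fell by 1.67 ± 0.35 (edgeR adjusted p = 0.00331). Among all genes, 24.5% were called in mature leaves, 9.65% as lower and 14.9% as higher in the variant. In a fit of the mature libraries alone the call of PH02Gene22330 was lost (adjusted p = 0.0527). Over 15 other settings of libraries, scaling and test, the log2 fold change lay between -1.66 and -0.93 for PH02Gene22330. For PH02Gene18738 it lay between -1.86 and -1.28.

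Replicate 3 of the variant mature group held the lowest value of both genes. Without it the log2 fold changes were -1.10 for PH02Gene22330 and -1.5 for PH02Gene18738, and both calls held (edgeR adjusted p = 0.00649 and 0.0105). In bulk leaf tissue, fewer cells that express a gene and less of its RNA per cell cannot be told apart. Some marker lists of other cell types moved in the same comparison, where 14.9% of all genes were higher and 9.65% lower in the variant. Of 74 tested genes of xylem and secondary walls, 45 were higher in variant mature leaves and 0 lower, with a median log2 fold change of 3.91, and their summed share of counts was 0.0183 to 0.0899% in variant and 0.0102 to 0.0146% in typical mature libraries. Of 43 tested genes of the epidermis and cuticle, 13 were higher and 0 lower, and their share was 0.0537 to 0.150% in variant and 0.0621 to 0.0731% in typical mature libraries. Of 25 tested meristem genes 4 were higher (16%) and 3 lower (12%), near the shares of all genes. The meristem genes took 0.106 to 0.120% of counts in variant and 0.0930 to 0.102% in typical mature libraries. Of 5 phloem genes edgeR called 0 in mature leaves, at a share of 0.00172 to 0.00334% in variant and 0.00307 to 0.00320% in typical mature libraries. Listed at 0 in all libraries of the group were 11 of 84 xylem genes in variant and 37 in typical mature leaves, 1 of 45 epidermis genes in variant and 13 in typical mature leaves, 13 of 35 meristem genes in variant and 19 in typical mature leaves, and 0 of 5 phloem genes in either. The part of these cell types in the GLK1 differences was not tested.

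**Figure D1:**
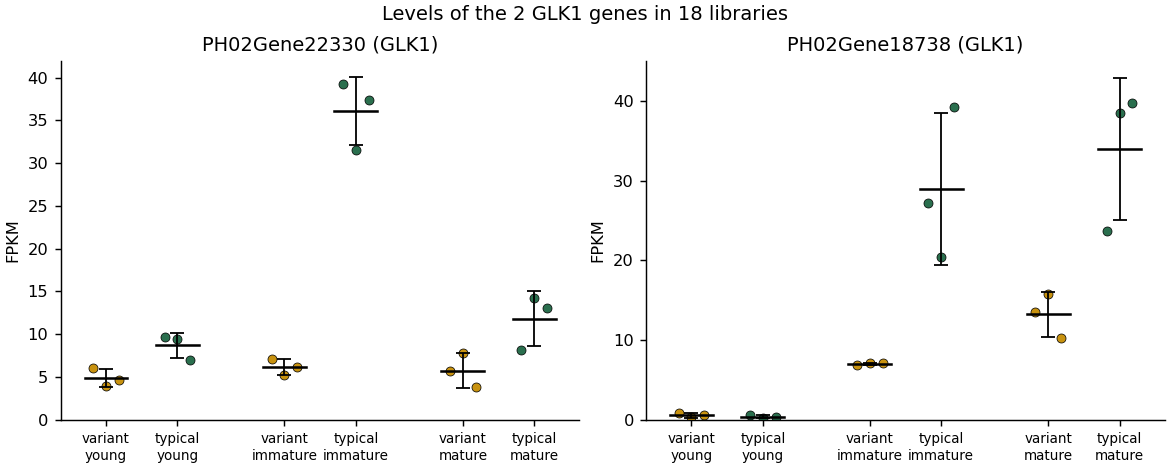
FPKM of PH02Gene22330 (left) and PH02Gene18738 (right) in each of 18 libraries, by plant type and stage; points are libraries, horizontal lines are means and bars are the SD over n = 3 libraries. The variant libraries lie below the typical ones at every stage for PH02Gene22330, and in immature and mature leaves for PH02Gene18738, which averaged under 1 FPKM in both young groups.

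Ordered by mean level, PH02Gene22330 stood at 36.1 ± 4.01 FPKM in typical immature, 11.8 ± 3.23 in typical mature, 8.69 ± 1.47 in typical young, 6.17 ± 0.910 in variant immature, 5.75 ± 2.00 in variant mature and 4.85 ± 1.06 FPKM in variant young leaves (mean ± SD, n = 3 each). Only the step between the first and the second of these groups was free of overlap, and each later neighbour in this order overlapped with the one before it. PH02Gene18738 stood at 34.0 ± 8.90 FPKM in typical mature, 29.0 ± 9.56 in typical immature, 13.2 ± 2.78 in variant mature, 7.0 ± 0.137 in variant immature, 0.570 ± 0.294 in variant young and 0.389 ± 0.146 FPKM in typical young leaves. Here the 2 highest groups overlapped, as did the 2 lowest, and the other steps did not.

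PH02Gene18738 was higher in mature than in young leaves of both plant types. The log2 fold change was 4.66 ± 0.40 in the variant (edgeR adjusted p = 2.04e-07) and 6.85 ± 0.44 in the typical plant (edgeR adjusted p = 6.31e-09). The log2 fold change of PH02Gene22330, mature over young, was 0.40 ± 0.26 in the variant (edgeR adjusted p = 0.205) and 0.85 ± 0.26 in the typical plant (edgeR adjusted p = 0.00962). The call of PH02Gene22330 in the typical plant was lost without TMM scaling (0.46, adjusted p = 0.122) and on FPKM values (0.38, adjusted p = 0.154, limma), and in the variant the difference passed the threshold without variant mature replicate 3 (0.64, adjusted p = 0.0380, edgeR). Among all genes tested, 57% were called between mature and young variant leaves, 28.4% as higher and 28.6% as lower, and 66% between mature and young typical leaves, 31.5% as higher and 34.5% as lower.

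The course from young to mature leaves differed between the plant types for PH02Gene18738. The log2 difference of the 2 changes, variant minus typical, was -2.19 ± 0.51 (edgeR adjusted p = 0.0166, interaction of plant type with stage). It was -0.45 ± 0.37 for PH02Gene22330 (edgeR adjusted p = 0.480). Of all genes tested, 9.89% were called in this interaction, 4.04% as lower and 5.85% as higher. Variant young replicate 1 had the highest young level of PH02Gene18738, and without that library the value was -1.70 and no longer passed (edgeR adjusted p = 0.0539). With nearly alike libraries summed it was -1.96 (edgeR adjusted p = 0.153).

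With immature leaves in between, given as values only, PH02Gene22330 peaked in typical immature leaves. Its log2 fold change of immature over young was 0.45 in the variant and 2.56 in the typical plant, and that of mature over immature was -0.05 in the variant and -1.71 in the typical plant. The corresponding values of PH02Gene18738 were 3.70 in the variant and 6.72 in the typical plant for immature over young, and 0.97 in the variant and 0.13 in the typical plant for mature over immature. PH02Gene22330 stayed between 3.81 and 7.80 FPKM in all 9 variant libraries.

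The makeup of the GLK1 transcripts changed with stage. The FPKM of both genes together averaged 5.42 ± 1.35 in variant and 9.08 ± 1.53 in typical young leaves, 13.2 ± 0.805 in variant and 65.1 ± 12.4 in typical immature leaves, and 19.0 ± 4.76 in variant and 45.8 ± 12.1 in typical mature leaves. PH02Gene18738 made up 10.03% ± 2.97 of that sum in variant and 4.29% ± 1.33 in typical young leaves. In immature leaves it made up 53.3% ± 4.11 in the variant and 43.8% ± 6.48 in the typical plant, and in mature leaves 70.2% ± 3.03 in the variant and 74.3% ± 1.07 in the typical plant.

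The log2 ratio of PH02Gene22330 over PH02Gene18738 was lower by 5.26 in mature than in young leaves, compared within plant type (two-sided exact permutation test, p = 0.005, the smallest that its 400 arrangements can give). A difference between plant types in this ratio over young and mature leaves did not pass (mean difference variant minus typical -0.51, two-sided exact permutation test within stage, p = 0.19). The difference had opposite signs at the 2 stages, -1.32 in young and 0.29 in mature leaves, and at either stage the 3 variant libraries lay on one side of the 3 typical ones. For a single stage the exact p was 0.1, the smallest that 3 against 3 libraries allow. Where the 2 genes share sequence, the counting can shift reads from one to the other, which would move this ratio more than the sum.

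**Figure D2:**
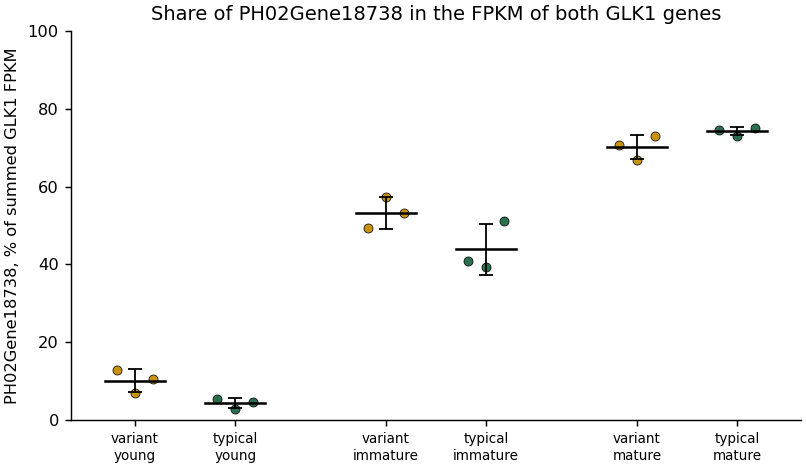
Share of PH02Gene18738 in the summed FPKM of both GLK1 genes, in percent, for 18 libraries by plant type and stage; points are libraries, lines are means and bars are the SD over n = 3 libraries. The share averages 10.03 and 4.29% in variant and typical young leaves, and 70.2 and 74.3% in variant and typical mature leaves.

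In Arabidopsis, GLK2 carries out work that overlaps with that of GLK1. PH02Gene22450 lies on scaffold 16 from base 101232528 to 101244788 and PH02Gene45076 on scaffold 14 from base 98068246 to 98070648. PH02Gene22450 had 2.37, 3.52 and 2.59 FPKM in variant immature leaves, against 8.82, 6.29 and 7.93 FPKM in typical immature leaves. The groups did not overlap, and it fell by 1.89 ± 0.28 on the log2 scale (edgeR adjusted p = 8.98e-05). In mature leaves it had 5.78, 7.19 and 3.55 FPKM in the variant and 3.92, 7.39 and 7.90 FPKM in the typical plant, with a log2 fold change of -0.51 ± 0.27 that did not pass (edgeR adjusted p = 0.181).

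PH02Gene45076 was a low transcript, between 0.183 and 2.60 FPKM in all libraries. In mature leaves it had 0.741, 0.467 and 0.183 FPKM in the variant, against 1.24, 1.06 and 1.41 FPKM in the typical plant. It fell by 1.71 ± 0.45 on the log2 scale (edgeR adjusted p = 0.0125), a call that was lost in a fit of the mature libraries alone (adjusted p = 0.0914). In immature leaves its log2 fold change was -0.67 ± 0.44 (edgeR adjusted p = 0.226). Neither GLK2 gene was called in young leaves (edgeR adjusted p = 0.831 and 1).

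**Figure D3:**
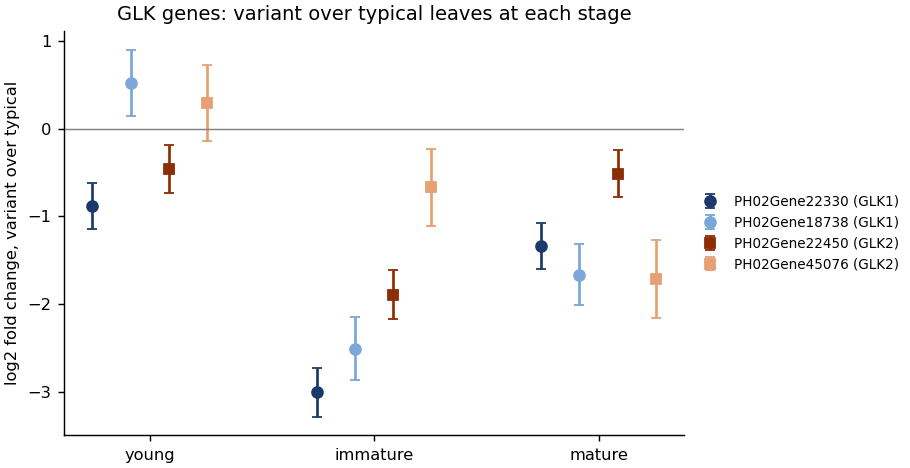
Log2 fold change of variant over typical leaves at each stage for the 2 GLK1 genes (circles) and the 2 GLK2 genes (squares), with bars for the standard error derived from the edgeR F value over 18 libraries. In immature leaves, where the GLK1 values are those by which the genes were picked, PH02Gene22330 lies at -3.0 and PH02Gene45076 at -0.67.

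Across 18 libraries, each of the 4 photosynthesis lists had a higher median likeness to both GLK1 genes than all genes tested had. Likeness is Pearson's r of log2 CPM, counts scaled to library size, and it is a description: the libraries fall into 6 groups, so r follows the group levels, and all genes share the libraries and their scaling. The immature libraries, in which the GLK1 genes were picked, are among the 18. With PH02Gene22330 the median r was 0.85 over 30 antenna genes, 0.78 over 52 genes of photosystems and electron transport, 0.74 over 35 Calvin cycle genes and 0.68 over 35 genes of chlorophyll synthesis. The median over all genes tested was -0.05. An r of at least 0.8 was reached by 23 of 30 antenna genes, 19 of 52 photosystem genes, 12 of 35 Calvin cycle genes and 14 of 35 chlorophyll synthesis genes, against 1.46% of all genes. On log2(FPKM + 1) values, 16 antenna, 9 photosystem and 4 Calvin cycle genes reached it, against 0.684% of all genes.

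With PH02Gene18738 the median r was 0.74 over the antenna genes, 0.89 over the photosystem genes, 0.87 over the Calvin cycle genes and 0.49 over the chlorophyll synthesis genes. All genes tested had a median of -0.09, and 14.0% of them reached 0.8. That level was reached by 9 of 30 antenna, 39 of 52 photosystem, 22 of 35 Calvin cycle and 3 of 35 chlorophyll synthesis genes. The chlorophyll synthesis share, 8.57%, lay below that of all genes. Without variant mature replicate 3, 19 antenna and 9 chlorophyll synthesis genes reached 0.8, against 15.5% of all genes. The 5 phloem genes had a median r of 0.77 with PH02Gene18738 and of 0.36 with PH02Gene22330, while the epidermis, xylem and meristem lists had medians of -0.60 to -0.31 with PH02Gene18738 and of -0.24 to 0.0075 with PH02Gene22330. The order of the photosynthesis lists turned with the setting. By Spearman's rho the Calvin cycle (0.89) stood above the photosystems (0.87) with PH02Gene18738. With PH02Gene22330 the antenna median in the 9 variant libraries was 0.75, below 0.79 of the photosystems, and in the 9 typical libraries it was 0.81, below 0.83 of the photosystems and 0.85 of chlorophyll synthesis. The r between the 2 GLK1 genes was 0.62. The GLK2 gene PH02Gene22450 had r of 0.79 with PH02Gene22330 and 0.41 with PH02Gene18738, and PH02Gene45076 had 0.16 and -0.33. In the 9 variant libraries the r of PH02Gene22450 with PH02Gene22330 was 0.16.

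**Figure D4:**
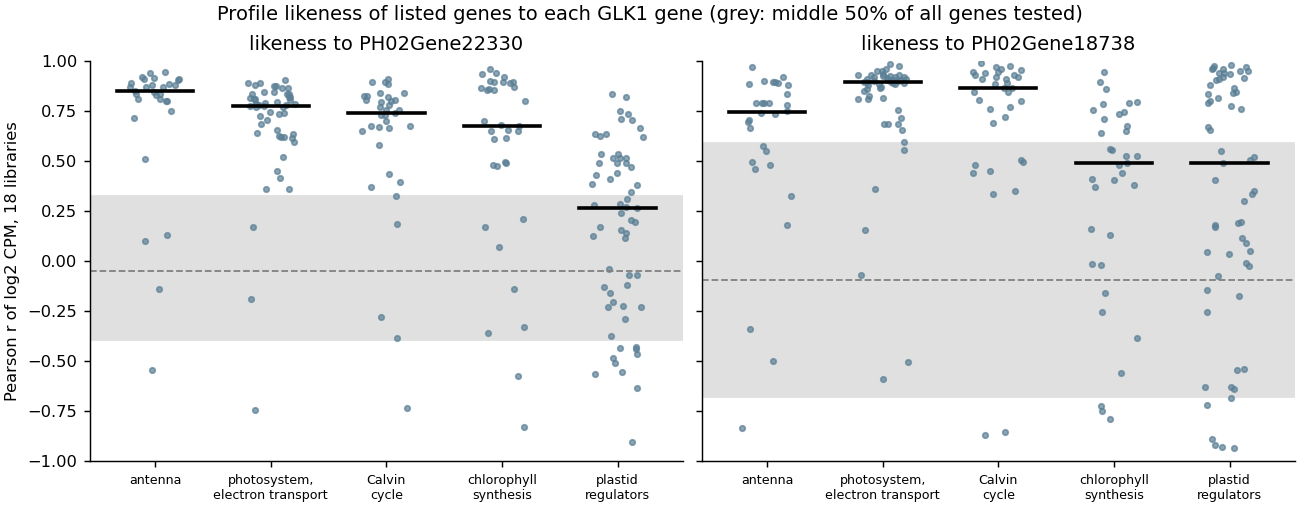
Pearson's r of log2 CPM over 18 libraries between each listed gene (points) and PH02Gene22330 (left) or PH02Gene18738 (right), with black lines at list medians, a dashed line at the median and a grey band over the middle 50% of all genes tested. Antenna medians are 0.85 and 0.74, and photosystem medians 0.78 and 0.89, on the left and on the right.

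Likeness was also taken within groups. When each library was set against the mean of its group, the median r of antenna genes was 0.69 with PH02Gene22330 and 0.46 with PH02Gene18738, against 0.04 and 0.02 over all genes. Genes of the epidermis and cuticle had a median of 0.45 with PH02Gene22330 and 0.21 with PH02Gene18738. Without variant mature replicate 3 the antenna medians were 0.50 and 0.64, and those of the epidermis and cuticle 0.20 and 0.19. For photosystem genes the same change of libraries took the median with PH02Gene22330 to 0.26, against 0.60 with all libraries.

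In young leaves, the only stage at which a GLK1 gene overlapped between plant types, PH02Gene18738 was set against summed list levels over 6 libraries. With the antenna level Pearson's r was 0.27 (exact permutation p = 0.594, adjusted p = 0.594) and Spearman's rho 0.086 (exact permutation p = 0.919, adjusted p = 0.919), and r was 0.58 without the 2 libraries farthest from the median. With the photosystem level r was 0.77 (exact permutation p = 0.0861, adjusted p = 0.172) and rho 0.60 (exact permutation p = 0.242, adjusted p = 0.483), and r was 0.84 without the 2 farthest libraries. Neither relation passed over the family of 2. For PH02Gene22330, and for both genes in immature and mature leaves, the plant types formed separate clusters and no r was taken.

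The library unlike its group had a low antenna level. Variant mature replicate 3, with 3.81 FPKM of PH02Gene22330, had a summed antenna level of 11.6 on the log2 scale of CPM, within the range of 11.3 to 12.2 of variant young leaves. Its PH02Gene18738 level of 10.3 FPKM lay above every young and every variant immature library. The other variant mature libraries had antenna levels of 14.0 and 14.3, and the typical mature libraries lay between 15.2 and 15.3.

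**Figure D5:**
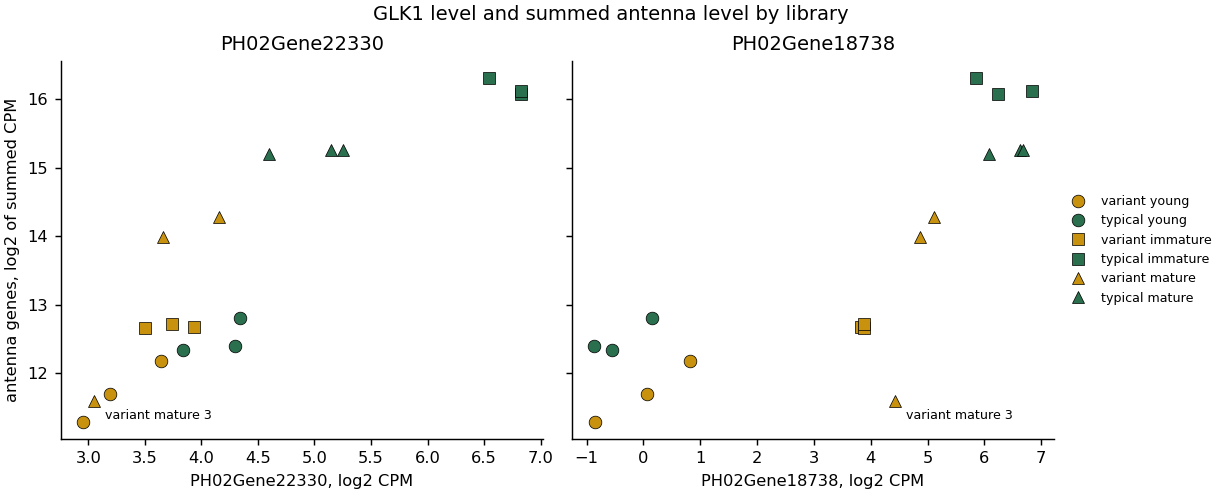
Log2 of the summed CPM of antenna genes against log2 CPM of PH02Gene22330 (left) and PH02Gene18738 (right) in 18 libraries, coloured by plant type and shaped by stage. Variant mature replicate 3 lies at an antenna level of 11.6, and the typical immature libraries lie highest, at 16.1 to 16.3.

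The genes most like PH02Gene22330 included several of antenna and chlorophyll synthesis. The closest was a casein kinase I (PH02Gene22171, a protein kinase, r = 0.98), followed by a protein described as SPA, chloroplastic (PH02Gene32713, 0.96) and glutamyl-tRNA reductase 2 (PH02Gene14878, 0.96), which catalyses the first committed step towards chlorophyll. An LHCII type 1 antenna protein (PH02Gene32429) had r = 0.95. A phosphate transporter of the chloroplast (PH02Gene04741), an undescribed rice relative (PH02Gene10128), the magnesium chelatase subunit ChlH (PH02Gene25100) and chlorophyll a-b binding protein 8 (PH02Gene10326) each had 0.94. Of the 50 most alike genes, 6 were antenna genes, 4 belonged to chlorophyll synthesis, 1 to the Calvin cycle and 0 to the photosystems. The 28779 genes with a mean of at least 1 FPKM, from which they were taken, held 27 antenna, 31 chlorophyll synthesis, 31 Calvin cycle and 51 photosystem genes. The genes least like it were a glucose-6-phosphate 1-epimerase (PH02Gene25823, -0.95), a JMJ30-like histone demethylase (PH02Gene15447, -0.94) and transmembrane protein 18 (PH02Gene34391, -0.93).

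The levels of these genes in mature leaves are given without a test, as mature libraries were among those by which they were named. Glutamyl-tRNA reductase 2 (PH02Gene14878) averaged 35.8 ± 11.7 FPKM in variant and 58.6 ± 2.00 FPKM in typical mature leaves. The LHCII type 1 gene (PH02Gene32429) averaged 192 ± 116 FPKM in variant and 597 ± 63.2 FPKM in typical mature leaves. The casein kinase I gene (PH02Gene22171) had 32.9 ± 4.11 FPKM in variant and 46.2 ± 6.68 FPKM in typical mature leaves. The JMJ30-like gene (PH02Gene15447), at the other end of the likeness, had 7.96 ± 6.38 FPKM in variant and 1.95 ± 1.20 FPKM in typical mature leaves.

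The genes most like PH02Gene18738 had higher r, but high r was also more common with this gene. Of all genes tested, 14.0% reached 0.8 with it, against 1.46% with PH02Gene22330. The glycolate oxidases GLO5 (PH02Gene09643) and GLO1 (PH02Gene15206) and glycerate dehydrogenase (PH02Gene31351), enzymes of the peroxisome, all had r = 0.99, as did catalase-1 (PH02Gene34256), which removes the hydrogen peroxide that glycolate oxidase makes. The same r was reached by the chloroplast lipid importer TGD3 (PH02Gene46421), an unnamed protein (PH02Gene00438), the cotransporter BASS3 (PH02Gene32174) and translocon component 52 (PH02Gene50800). Of the 50 most alike genes none was an antenna gene, 1 was a photosystem gene and 1 a Calvin cycle gene. The genes least like it were an RNA helicase A-like gene (PH02Gene27246), a CYPRO4-like gene (PH02Gene04827) and porin 5 (PH02Gene30711), all at -0.99.

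Glycerate dehydrogenase (PH02Gene31351) averaged 21.4 ± 5.91 FPKM in variant and 19.2 ± 7.19 in typical young leaves, 148 ± 1.12 in variant and 410 ± 99.5 in typical immature leaves, and 242 ± 52.3 in variant and 621 ± 69.8 FPKM in typical mature leaves. GLO5 (PH02Gene09643) averaged 148 ± 44.0 FPKM in variant and 284 ± 81.7 FPKM in typical mature leaves. Porin 5 (PH02Gene30711), among the least alike, had 6.46 ± 2.54 FPKM in variant and 2.84 ± 0.296 FPKM in typical mature leaves.

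In mature leaves, genes of all 4 photosynthesis lists were lower in the variant beside the GLK1 genes. Of all genes tested, 9.65% were lower and 14.9% higher in the variant, with a median log2 fold change of 0.09. Of 30 tested antenna genes 18 were lower (60%) and 0 higher (median -1.68). Of 52 photosystem and electron transport genes 28 were lower (53.8%) and 1 higher (median -1.09). Of 35 Calvin cycle genes 26 were lower (74.3%) and 1 higher (median -1.49). Of 35 chlorophyll synthesis genes 10 were lower (28.6%) and 0 higher (median -0.69). In a fit of the mature libraries alone 0, 5, 11 and 2 genes of these lists were lower, and fewer of all genes were called as well. Without typical mature replicate 2 or 3 the antenna count was 9 or 10, and without variant mature replicate 2 the chlorophyll count was 17. With single libraries left out, 6385 to 8652 of all genes were called in either direction, against 9224 otherwise. The share of all genes called lower is not given for these fits, so their list counts cannot be set against 9.65%. In young leaves edgeR called 0 genes of any list here, including those of other cell types, and 64 genes in all, with 2652 at an unadjusted p under 0.05.

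Among the 3 most abundant antenna genes, PH02Gene49412 (chlorophyll a-b binding protein 2) averaged 539 ± 474 FPKM in variant and 1480 ± 481 FPKM in typical mature leaves and did not pass (edgeR adjusted p = 0.142). PH02Gene04237 averaged 1501 ± 700 FPKM in variant and 2563 ± 264 FPKM in typical mature leaves and fell by 1.08 ± 0.32 (edgeR adjusted p = 0.0229), while PH02Gene45538 had a log2 fold change of -0.52 ± 0.48 (edgeR adjusted p = 0.466). The photosystem II 10 kDa protein (PH02Gene08265) fell by 2.60 ± 0.44, to 1169 ± 712 FPKM in variant mature leaves, against 5799 ± 1876 FPKM in typical mature leaves. The Calvin cycle enzyme phosphoribulokinase (PH02Gene03788) averaged 248 ± 171 FPKM in variant and 718 ± 62.0 FPKM in typical mature leaves (edgeR adjusted p = 0.0152). Another ChlH gene (PH02Gene25454) fell by 2.21 ± 0.47, whereas protochlorophyllide reductase B (PH02Gene14847), the light-dependent step of chlorophyll synthesis, did not pass (-1.34 ± 0.50, edgeR adjusted p = 0.0599).

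Some list members had negative r with both GLK1 genes. The psbP domain protein 5 gene (PH02Gene26941) had r of -0.74 with PH02Gene22330 and -0.59 with PH02Gene18738, and it averaged 39.7 ± 15.8 FPKM in variant and 17.3 ± 6.58 FPKM in typical mature leaves. Aldolase 3 (PH02Gene38568) had r of -0.74 and -0.86. The antenna gene PH02Gene18015 had -0.54 and -0.84 at levels that averaged under 2 FPKM in every group, and porphobilinogen deaminase PH02Gene34328 had -0.83 and -0.56.

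Tested regulators of plastid development, such as B-box proteins, sigma factors and phytochrome-interacting factors, numbered 61. In variant mature leaves 13 of them were lower (21.3%) and 3 higher (4.92%), against 9.65% and 14.9% of all genes. Their median log2 fold change was -0.29. An r of at least 0.8 was reached by 21 of them (34.4%) with PH02Gene18738, against 14.0% of all genes, and by 2 (3.28%) with PH02Gene22330, against 1.46% of all genes. REVEILLE 1 (PH02Gene29434), a clock-related MYB factor, averaged 23.8 ± 0.998 FPKM in variant and 103 ± 13.3 FPKM in typical mature leaves and fell by 2.42 ± 0.15 (edgeR adjusted p = 7.53e-07). B-box protein 19 (PH02Gene35355) fell by 1.20 ± 0.15, and the sigma factor sigA (PH02Gene17359), which directs the plastid RNA polymerase to promoters, fell by 1.62 ± 0.27. Phytochrome-interacting factor-like 13 (PH02Gene23403) had r = 0.94 with PH02Gene18738 and yet did not pass between plant types in mature leaves (0.41 ± 0.21, edgeR adjusted p = 0.166). In the wider GARP family, 8 of 51 tested genes were lower (15.7%) and 6 higher (11.8%), against 9.65% and 14.9% of all genes.

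The neighbourhoods of the 2 GLK1 genes resemble each other in 1 point, a gene of the CUP-SHAPED COTYLEDON type, NAC factors that set organ boundaries, within the 5 nearest genes on one side. It is PH02Gene15869 near PH02Gene22330 and PH02Gene18734 near PH02Gene18738, and both averaged under 0.1 FPKM. Of the 10 nearest genes, 6 averaged under 1 FPKM around PH02Gene22330 and 2 around PH02Gene18738. In mature leaves 1 of the 6 tested neighbours of PH02Gene22330 and 0 of the 9 of PH02Gene18738 were called, against 24.5% of all genes. The called neighbour was the GDSL lipase gene PH02Gene22337, which was higher in the variant (edgeR adjusted p = 0.0358). None of the nearest genes overlapped a GLK1 gene in the deposited coordinates.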

How the data were processed

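RNA of 18 leaf libraries was primed at the poly(A) tail, amplified by PCR and fragmented, per the labels' protocols, with no step that marks the strand and no molecular identifiers, so amplified copies count as separate reads. Errors in the text are spreads or standard errors over libraries. For edgeR the standard error was derived as the absolute log2 fold change divided by the square root of the test's F value. Tools listed in the submitters' processing notes, with no version, are Salmon, cutadapt and FastQC; the genome build is not given in the sources used here. Per the file headers, the deposited table gives each gene's estimated count in every library, rounded here to whole numbers, and the authors also deposited FPKM. Of 42520 genes, 37595 passed edgeR's filterByExpr (minimum count 10, minimum total 15). The main test was the quasi-likelihood test of edgeR 4.0.16 in R 4.3.3, with 6 group means over 18 libraries, 12 residual degrees of freedom, TMM scaling (trimmed mean of M values) and Benjamini-Hochberg adjustment, called at an adjusted p under 0.05. It was also run on simulated counts with equal group means, apart from a small set of genes changed in variant mature leaves. Far more genes were called in the real data, so that run does not show error rates here. DESeq2 1.42.0 and limma 3.58.1 on log2(FPKM + 1) were alternatives.

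Without TMM scaling the median log2 fold change of all genes, variant over typical, was 0.43 in immature and 0.43 in mature leaves, against -0.0072 and 0.087 with it, and the share of calls that were higher in the variant was 74.1% in immature and 85.1% in mature leaves, against 48.4% and 60.7% with it. For mature over young typical leaves it was 37.0% against 47.7%, and for the interaction 80.8% against 59.2%. Without TMM scaling 1778 genes were called as lower in variant mature leaves, against 3629 with it. Counts for the photosynthesis lists are not given for that setting. Changes are therefore relative to the bulk of genes.

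The 2 GLK1 genes, the 10 gene lists and the tests were chosen with earlier results of these data known, and list search terms were tidied after descriptions were seen. Lists cover the antenna, photosystems and electron transport, the Calvin cycle, chlorophyll synthesis, plastid regulators, the GARP family, and genes of epidermis, xylem, phloem and meristem, all found by description. Genes were named by rule: all GLK genes, the 8 most and 3 least alike genes of each GLK1 gene, the 3 most abundant and the least alike member of each photosynthesis list, up to 12 regulators, and the 5 neighbours on each side. The regulators were the 6 most abundant, then those called between plant types in mature leaves, in order of adjusted p. Ratios were tested by exact permutation of labels within strata. No sequence is shown, as none was used here.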

Additional observations from a re-analysis of the deposited data

Results flagged for a closer look

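PH02Gene18738 met 1 criterion, a change that differs between the plant types by a test of the difference itself. Its log2 change of mature over young leaves was smaller in the variant than in the typical plant by a difference of -2.19 ± 0.51 (edgeR adjusted p = 0.0166). The call was lost without variant young replicate 1 (adjusted p = 0.0539) and with nearly alike libraries summed (adjusted p = 0.153). Both plant types moved in the same direction, by 4.66 in the variant and 6.85 in the typical plant. The young levels behind it are low, at 0.286 to 0.872 FPKM in the variant and 0.272 to 0.553 FPKM in the typical plant.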

How the results depend on the processing

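Calls of the GLK1 genes changed under few settings. PH02Gene22330 in mature leaves lost its call with the mature libraries alone (-1.33, adjusted p = 0.0527). Its mature over young change in the typical plant lost it without TMM scaling (0.46), with nearly alike libraries summed (0.70) and with limma on FPKM with a pseudocount of 1 (0.38, with or without the filter) or 0.1 (0.41), and the variant change ranged over 0.12 to 0.64 when single libraries were left out. The interaction of PH02Gene18738 lost its call with nearly alike libraries summed (-1.96) and without variant young replicate 1 (-1.70, the weak end of -2.52 to -1.70 with single libraries left out), and kept it with limma on FPKM at pseudocounts of 1 (-1.45) and 0.1 (-1.74). The immature log2 fold changes of PH02Gene22330 and PH02Gene18738 were -2.48 and -1.98 without TMM scaling, -2.37 and -1.86 with limma at a pseudocount of 1, and -2.53 and -1.98 at 0.1.

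Counts of calls over all genes moved more. Young leaves had 64 calls, against 501 with DESeq2, 0 with nearly alike libraries summed, 254, 208 and 376 with limma (pseudocounts of 1 and 0.1, and no filter), and 5 to 109 with single libraries left out. Summing gave 6923 immature calls (16868 otherwise), 3928 mature calls (9224) and 263 interaction calls (3719). DESeq2 gave 6426 interaction calls, leaving out single libraries 2006 to 4605, and the mature libraries alone 2641 mature calls. Lower genes in mature leaves, with those libraries alone and with summing, were 0 and 2 for the antenna, 5 and 11 for photosystems, 11 and 17 for the Calvin cycle, and 2 and 4 for chlorophyll synthesis; leaving out single libraries gave 9 to 19 antenna and 8 to 17 chlorophyll genes. The share of all genes called lower is not given beside these list counts. Median likeness within groups, without variant mature replicate 3 (chosen after seeing the data), was 0.26 for photosystem and 0.32 for Calvin cycle genes with PH02Gene22330, and 0.37 for photosystem genes with PH02Gene18738 (0.41 with all libraries). Counts of genes with a likeness of at least 0.8 moved too. With log2(FPKM + 1) they were 16 antenna, 9 photosystem and 4 Calvin cycle genes for PH02Gene22330, while the share of all genes went from 1.46% to 0.684%. With Spearman's rho they were 15 antenna and 9 chlorophyll synthesis genes for PH02Gene18738, while the share of all genes went from 14.0% to 9.39%. The cause of these changes was not tested.

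Same-numbered libraries did not deviate together (r from -0.0985 to 0.155, 3 of 45 pairs over 0.1, against 6 of 90 pairs of other numbers). Libraries of 1 plant need not deviate together, so these values cannot show whether the numbers pair samples. With the replicate block young leaves had 38 calls and mature leaves 8295, and no GLK1 call changed. Depth limits PH02Gene18738 in young leaves, with 33 to 106 counts in the variant and 34 to 66 in the typical plant. Summing nearly alike libraries leaves variant immature leaves as 1 sample, assumed to vary like the other groups.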
